A study of Mus musculus with 6 samples.

Results

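The 44 collagen genes measured in mouse temporomandibular joint (TMJ) tissue are described here, out of 22032 genes in the count table. They were chosen by name alone, as every symbol written Col, a number, the letter a and a number. The TMJ is the jaw joint, where the mandible meets the skull. The study compared Igf2bp2 knockout (KO) tissue, labelled Igf2bp2-KO and in the series design Igf2bp2-/-, with tissue of wild-type (WT) littermates, labelled Igf2bp2-WT, all from mice 10 weeks old, with 3 poly(A)-selected RNA libraries per group. IGF2BP2 binds transcripts that carry m6A, a methyl mark on adenosine, and the series title ties it to loss of the bone beneath the joint cartilage. The labels name no treatment and do not say whether tissue was pooled, which part of Igf2bp2 is deleted or whether it is deleted in every cell.

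Collagens are triple helices of 3 chains, and each chain is the product of its own gene. Fibrillar collagens form the tensile fibres of bone, tendon, capsule and disc, type I being the main one of bone and type II of hyaline cartilage. Network-forming type IV collagens build the basement membranes around vessels, muscle fibres and Schwann cells. Collagens of the FACIT group (fibril-associated collagens with interrupted triple helices) sit on the surface of fibrils. Beaded filament and transmembrane collagens link cells to their matrix.

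Gene counts came to 28551236 to 35094127 per library, with no clear split between the groups. The groups did separate in composition: 85.3% to 86.0% of the counts in KO and 90.6% to 90.8% in WT were on the 13 mitochondrial protein genes. That left 4604575 to 4899680 nuclear counts per library in KO and 2625472 to 3205190 in WT. This difference runs alongside every comparison of KO with WT; leaving the mitochondrial genes out kept the same 16 collagen calls, and its part in the results was otherwise not tested. Levels are given in CPM, the count of a gene relative to the library total after scaling by edgeR's TMM factors, which were 1.2 to 1.22 in KO and 0.794 to 0.862 in WT. The variance between libraries was set against the sampling noise of read pairs, each assumed to add 2 counts. The ratios, and the summing based on them, rest on that assumption, which was not tested. KO 1 with KO 3, and WT 2 with WT 3, differed by no more than this noise, with median variance ratios of 0.941 and 0.964. The other pairs within a group had ratios of 1.31 to 1.63. Each close pair was summed to 1 sample, so n = 2 samples per group in every mean, standard deviation (SD) and test. No label ties a library to an animal of its own, so p-values reflect the spread among these samples alone, and that spread may be technical. The targeted gene Igf2bp2 had 13, 14 and 10 counts in KO 1 to 3, against 38, 20 and 24 counts in WT 1 to 3, and was lower in KO (log2 fold change -1.80, edgeR false discovery rate (FDR) 0.00589).

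Of the 44 collagen genes, 41 had enough counts to test, and 16 of these differed between KO and WT at an FDR under 0.05 by edgeR's quasi-likelihood test, 6 higher and 10 lower in KO. Among all 14632 tested genes 17.6% were called, 9.15% as higher and 8.48% as lower, against 39.0% of the tested collagen genes. The median log2 fold change was -0.22 over the 41 collagen genes and -0.01 over all tested genes. The groups did not overlap in CPM over the 3 and 3 libraries for 28 of the 41, or 68.3%, against 38.5% of all tested genes. With a log2 fold change of at least 1 in size also required, 4 were higher and 3 lower, against 3.93% and 3.3% of all tested genes. Both directions occurred within the fibrillar, cartilage, basement membrane and beaded filament classes. In bulk tissue, fewer cells of a type and less RNA per cell cannot be told apart.

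**Figure D1:**
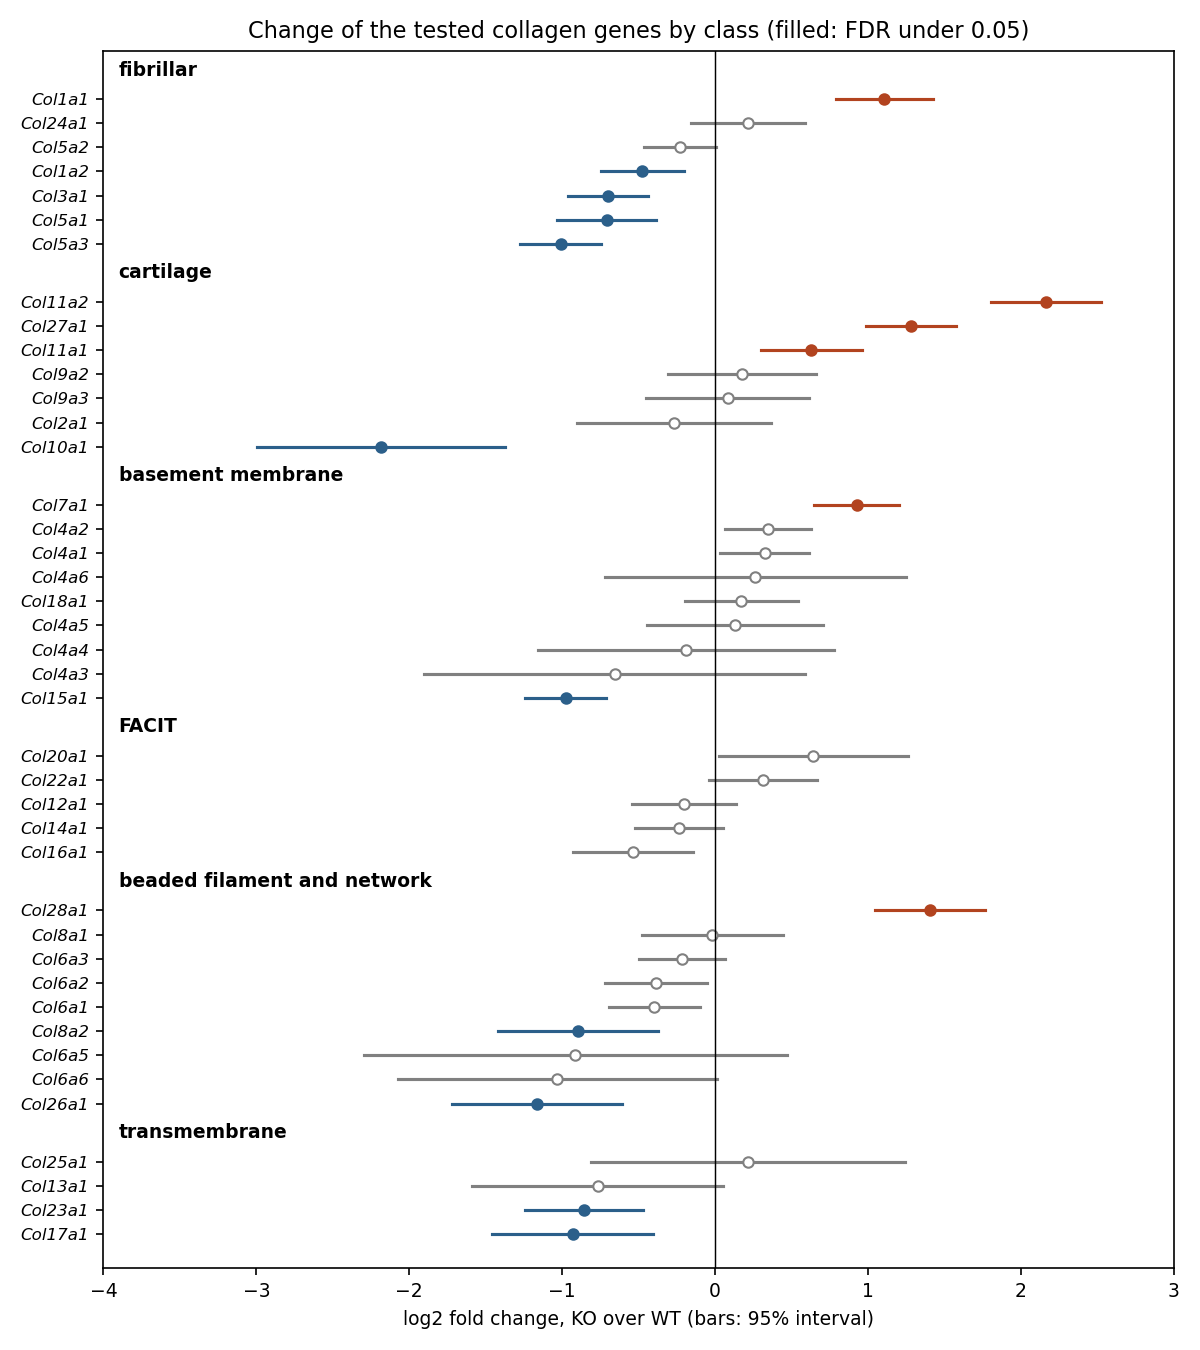
Log2 fold change of each tested collagen gene, KO over WT, on the horizontal axis, with bars for the 95% interval of the edgeR fit (n = 2 samples per group) and genes grouped by class down the page. Filled points passed an FDR of 0.05; 6 lie right of 0 (higher in KO) and 10 left of it.

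Type I procollagen α1 had the largest share of the collagen counts in every library. Col1a1 alone held 46.4%, 48.1% and 47.3% of all collagen counts in KO 1 to 3, against 27.3%, 26.8% and 26.7% in WT 1 to 3. Col1a2 held 13.0% to 13.9% in KO and 22.0% to 23.5% in WT, and Col3a1 7.21% to 7.65% in KO and 14.4% to 15.3% in WT. The fibrillar class as a whole took almost the same share in both groups, 71.3% to 71.8% in KO and 69.6% to 71.1% in WT. The division within it differed. Of the other classes, cartilage genes took 5.20% to 5.34% in KO and 2.49% to 2.68% in WT, beaded filament and network genes 5.30% to 5.62% in KO and 7.40% to 8.23% in WT, FACIT genes 1.91% to 1.97% in KO and 2.61% to 2.69% in WT, and transmembrane genes 0.455% to 0.574% in KO and 1.05% to 1.16% in WT. None of these 4 overlapped between the groups, whereas basement membrane genes did, at 15.0% to 15.5% in KO and 15.1% to 16.0% in WT. All shares of a library are parts of the same whole, so a larger Col1a1 share leaves less for the other genes together. Whether the shares of a class overlap therefore does not show by itself whether its level differed. Summed over the 44 genes, KO libraries held 1046, 1167 and 1062 CPM of collagen, and WT libraries 965, 853 and 840 CPM. Without Col1a1 the order turned: the other 43 genes summed to 560 to 605 CPM in KO and 616 to 701 CPM in WT. The shares compare counts within a library and do not depend on the scaling between libraries. The summed CPM, and the order that turned without Col1a1, do depend on it.

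**Figure D2:**
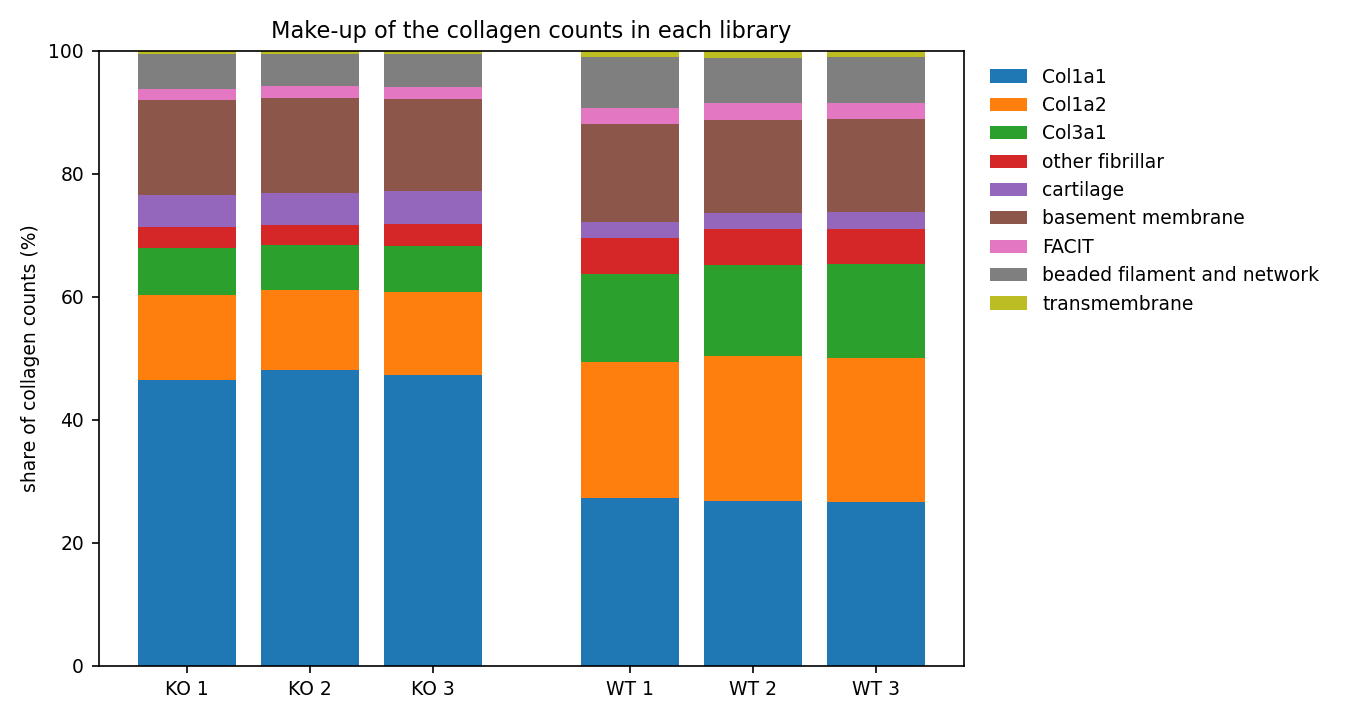
Share of all collagen counts (%, vertical axis) held by Col1a1, Col1a2, Col3a1, the other fibrillar genes and the other classes, as stacked bars, 1 bar per library. The Col1a1 block reaches 46.4% to 48.1% in KO libraries and 26.7% to 27.3% in WT libraries, while the fibrillar blocks together end at about the same height.

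Among the 7 genes classed here as fibrillar, 1 rose and 4 fell in KO. Col2a1, Col11a1, Col11a2 and Col27a1 also form fibrils and are given below with the cartilage genes. Of those, Col11a1, Col11a2 and Col27a1 were called higher in KO, so the balance of directions depends on how the classes were drawn. Col1a1, the α1 chain of type I collagen, had 485, 562 and 502 CPM in the KO libraries and 264, 228 and 224 CPM in the WT libraries. Its lowest KO library was well above its highest WT library, and the rise was 2.16-fold (log2 fold change 1.11, SE 0.15, edgeR FDR 0.000134). Col1a2, which encodes the α2 chain that joins a pair of α1 chains in the same molecule, had 145, 152 and 142 CPM in KO, against 212, 201 and 196 CPM in WT. It fell by 0.48 on the log2 scale (SE 0.13, edgeR FDR 0.0188), again without overlap of the groups. The Col1a2 call was lost without KO 2 (FDR 0.271) and, narrowly, without WT 1 (FDR 0.0509), while its log2 fold change lay between -0.51 and -0.41 in every fit tried. Both chains of the same molecule thus differed in opposite directions in the same libraries.

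Type III and type V chains were lower as well. Col3a1, the collagen of pliable tissue such as vessel walls and fascia, had 79.9, 84.1 and 80.2 CPM in KO and 139, 128 and 128 CPM in WT, and was 1.63-fold lower (log2 fold change -0.70, SE 0.12, edgeR FDR 0.00115). That call was lost without KO 2 (FDR 0.0742). Col5a1, a chain of the type V collagen that starts fibrils and limits their width, had 8.50, 9.88 and 7.34 CPM in KO and 16.2, 14.0 and 11.8 CPM in WT (log2 fold change -0.71, SE 0.15, edgeR FDR 0.00529). Col5a3, the third type V chain, showed the largest fall of the class. It had 7.61, 6.95 and 7.18 CPM in KO, against 15.4, 13.7 and 13.5 CPM in WT (2.01-fold lower, log2 fold change -1.01, edgeR FDR 7.39e-05). Col5a2, which pairs with Col5a1, had a log2 fold change of -0.23 (95% interval -0.46 to 0.01, edgeR FDR 0.182), and Col24a1, a chain found in developing bone, one of 0.21 (FDR 0.449).

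Per length, the order of the leading genes was the same in both groups. With the CPM divided by the longest transcript in kilobases, Col1a1 came first (89.0 in KO, 41.3 in WT), then Col1a2 (27.6 in KO, 38.4 in WT), Col3a1 (14.8 in KO, 24.0 in WT), Col4a1 (12.6 in KO, 10.0 in WT) and Col4a2 (9.55 in KO, 7.53 in WT). In WT the type I chains were thus close to each other in level per kilobase, and in KO they were far apart. Col11a2 ranked 6 in KO and 13 in WT, Col28a1 10 and 18, and Col27a1 11 and 19.

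**Figure D3:**
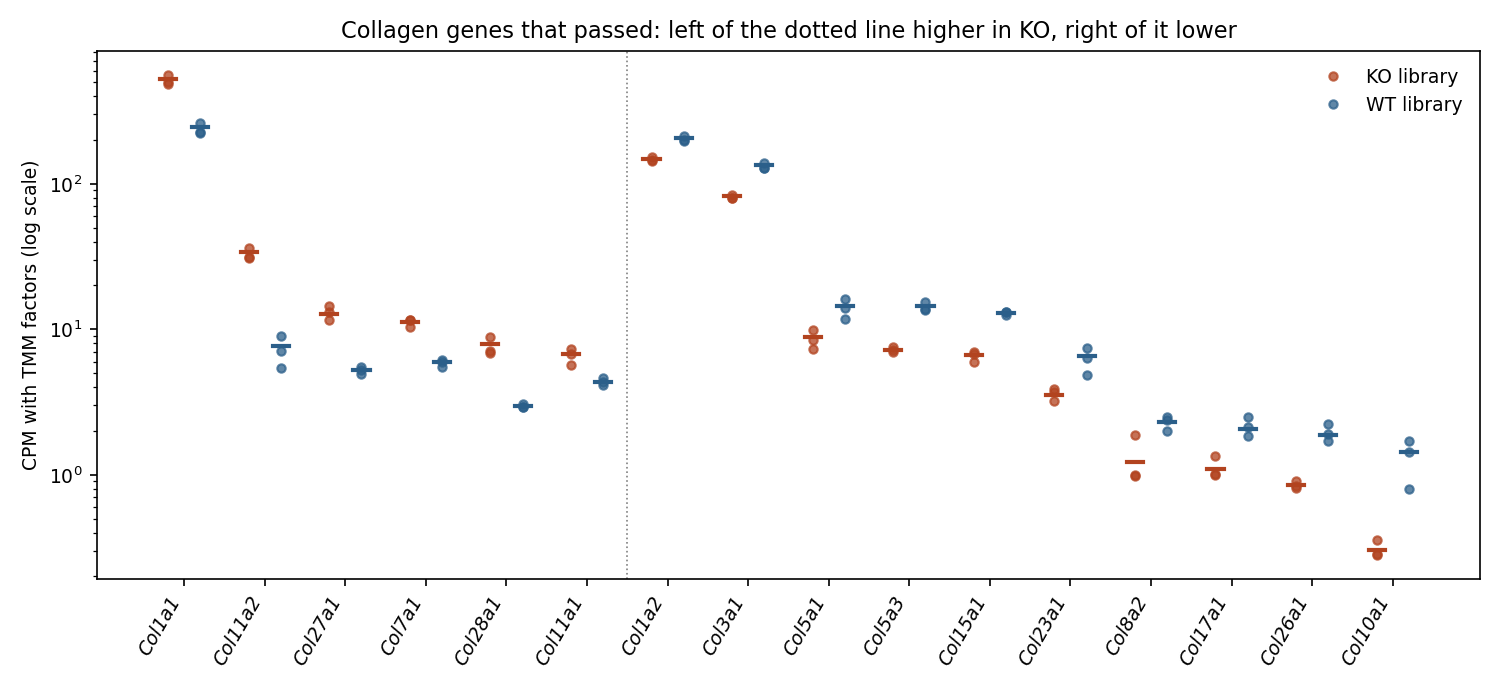
CPM with TMM factors (log scale) of the 16 collagen genes that passed, with 1 point per library, a bar at the mean of the 2 samples of a group, and KO left of WT for each gene. For all 16 genes the 3 KO points lie on one side of the 3 WT points.

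Bone and tooth cell genes differed in the same libraries. Of 12 osteoblast and osteocyte genes 2 were higher and 3 lower in KO, with the list summing to 100.4 to 105 CPM in KO and 85.7 to 87.5 CPM in WT. The median log2 fold change of the list was -0.36, and 9 of the 12 were negative. Without Bglap the other 11 summed to 55.0 to 59.0 CPM in KO and 67.5 to 75.2 CPM in WT. Bglap, the osteocalcin gene, had 44.0 to 46.0 CPM in KO and 12.3 to 18.2 CPM in WT, while Runx2, the osteoblast transcription factor, had 1.40 to 1.47 CPM in KO and 3.11 to 4.21 CPM in WT. Of 8 tooth genes 7 passed. Dspp, the dentin gene of odontoblasts, had 116 to 123 CPM in KO and 8.78 to 9.13 CPM in WT. The enamel genes Amelx, with 252 to 276 CPM in KO and 861 to 904 CPM in WT, and Ambn, with 142 to 145 CPM in KO and 569 to 657 CPM in WT, went the other way. In all 1 tooth gene was higher and 6 were lower, while Mmp20, an enamel protease, did not pass (log2 fold change 0.14, edgeR FDR 0.665), with sums of 539 to 569 CPM in KO and 1526 to 1637 CPM in WT, and none was at 0. Odontoblasts are known to make type I collagen. The part of bone and tooth cells in the type I collagen values was not tested. The 12 synovial and fibroblast genes summed to 246 to 266 CPM in KO and 234 to 248 CPM in WT, with 3 higher and 2 lower. Of the 11 tested, 6 had a negative log2 fold change. Prg4 alone, with 42.4 to 49.4 CPM in KO and 10.4 to 11.9 CPM in WT, differed by more than the list sums. The 7 tendon genes summed to 93.4 to 98.4 CPM in KO and 77.6 to 95.2 CPM in WT, with 1 higher and 1 lower. Of these 7, 5 had a negative log2 fold change, while Angptl7 had 26.3 to 27.4 CPM in KO and 11.6 to 13.7 CPM in WT.

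Of the 8 cartilage collagen genes 7 were tested, and 3 rose and 1 fell in KO. Col11a2, the α2 chain of type XI collagen, which forms the core of thin cartilage fibrils with type II, had 31.4, 36.4 and 31.0 CPM in KO and 8.96, 5.38 and 7.11 CPM in WT. Every KO library stood far above every WT library, and the rise was 4.48-fold (log2 fold change 2.16, SE 0.16, edgeR FDR 5.92e-06), the largest rise among the 41 tested collagen genes. Its partner Col11a1 had 5.70, 7.31 and 6.74 CPM in KO and 4.17, 4.37 and 4.62 CPM in WT, a smaller rise (log2 fold change 0.63, SE 0.15, edgeR FDR 0.0116) whose call was lost without KO 2 (FDR 0.179). Col27a1, a fibrillar collagen of growth-plate cartilage that is also made in developing teeth, had 13.1, 11.6 and 14.4 CPM in KO and 5.27, 5.52 and 4.93 CPM in WT. It rose 2.43-fold (log2 fold change 1.28, edgeR FDR 2.06e-05). Col10a1, the collagen of hypertrophic chondrocytes, was the member that fell. It rested on few counts, 14, 12 and 11 in the KO libraries and 50, 18 and 37 in the WT libraries, and was 4.55-fold lower (log2 fold change -2.19, SE 0.37, edgeR FDR 0.0011).

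The type II and type IX chains, best known from hyaline cartilage, did not pass or were too low to test. Col2a1, the main cartilage collagen, had 1.04, 1.57 and 0.824 CPM in KO and 1.54, 1.1 and 1.67 CPM in WT, with overlapping groups (log2 fold change -0.27, 95% interval -0.90 to 0.37, edgeR FDR 0.603). Of the type IX chains, which decorate type II fibrils, Col9a2 and Col9a3 had log2 fold changes of 0.18 and 0.08 (FDR 0.656 and 0.868), and Col9a1 was too low to test, with 0, 5 and 2 counts in KO and 3, 2 and 3 counts in WT. Per kilobase, Col9a2 ranked 21 of the 44 in KO and 22 in WT, Col9a3 25 in KO and 27 in WT, Col2a1 31 in KO and 33 in WT, and Col9a1 42 in both. Other cartilage genes were low too. Of a list of 12 chondrocyte markers, 9 had a row and 7 were tested, and none passed by edgeR or DESeq2 (1, Chad, had an unadjusted edgeR p under 0.05), with sums of 12.0 to 13.9 CPM in KO and 15.0 to 17.0 CPM in WT. The proteoglycan gene Acan had 0.484 to 0.875 CPM in KO and 0.777 to 1.32 CPM in WT. Sox9, the cartilage transcription factor, had 1.63 to 2.42 CPM in KO and 2.56 to 3.34 CPM in WT. Ucma was at 0 in every WT library and had 0, 2 and 2 counts in KO. The name cartilage collagen therefore marks where these genes are best known, and the tissue that gave the Col11a2 and Col27a1 reads was not tested. Col11a2 is also expressed in the inner ear. Of 12 inner ear genes 10 had a row and 2 could be tested, and the list summed to 2.65 to 2.74 CPM in KO and 1.54 to 2.41 CPM in WT. Most of the KO sum was Otog, the 1 called higher, with 1.79 to 2.19 CPM in KO and 0.353 to 0.815 CPM in WT. Coch, the other tested gene, leaned lower and did not pass (log2 fold change -1.14, edgeR FDR 0.0999). Otogl, Tectb and Otoa were at 0 in WT, with 5, 5 and 2, 0, 2 and 0, and 4, 6 and 0 counts in KO 1 to 3.

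The sequences before the start sites of 4 called genes are shown, to set the cartilage genes that rose most beside the most abundant fibrillar genes that fell. They are the 250 bases before the annotated start, from RefSeq on GRCm38.p6, where 35 of the 44 genes had an entry. All are on the plus strand: Col11a2 at chr17:34038888-34039137, Col27a1 at chr4:63215162-63215411, Col1a2 at chr6:4505368-4505617 and Col3a1 at chr1:45311288-45311537. Capitals mark a match, on either strand, to TATAAA, to CCAAT, to the GC box GGGCGG or to the AP-1 motif TGANTCA, none of which overlaps another here.
Col11a2: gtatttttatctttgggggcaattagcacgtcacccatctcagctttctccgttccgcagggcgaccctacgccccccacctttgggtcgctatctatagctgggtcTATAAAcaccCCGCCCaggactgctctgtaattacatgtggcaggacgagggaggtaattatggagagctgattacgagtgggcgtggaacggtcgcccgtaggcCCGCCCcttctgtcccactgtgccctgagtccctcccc
Col27a1: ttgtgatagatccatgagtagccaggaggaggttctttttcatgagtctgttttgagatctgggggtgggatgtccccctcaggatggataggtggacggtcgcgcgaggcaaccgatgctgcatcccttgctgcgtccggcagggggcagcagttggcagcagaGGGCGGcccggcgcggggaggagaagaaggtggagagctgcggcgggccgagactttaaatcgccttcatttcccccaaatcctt
Col1a2: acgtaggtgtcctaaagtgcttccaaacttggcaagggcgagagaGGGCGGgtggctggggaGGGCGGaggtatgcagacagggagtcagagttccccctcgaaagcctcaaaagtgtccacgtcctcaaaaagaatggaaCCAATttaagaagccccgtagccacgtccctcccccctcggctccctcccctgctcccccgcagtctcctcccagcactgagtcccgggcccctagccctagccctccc
Col3a1: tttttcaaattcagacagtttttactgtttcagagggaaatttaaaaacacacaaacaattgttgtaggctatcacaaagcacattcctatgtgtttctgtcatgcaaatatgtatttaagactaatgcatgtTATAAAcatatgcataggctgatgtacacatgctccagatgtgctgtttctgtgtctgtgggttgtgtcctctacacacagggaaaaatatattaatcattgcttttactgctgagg
Col11a2 holds TATAAA and, on the minus strand, 2 GC boxes. Col27a1 holds 1 GC box, Col1a2 holds 2 and a CCAAT at position -109 from the start, and the AT-rich Col3a1 stretch holds TATAAA only. None of the 4 holds TGANTCA. Over the 35 genes, GGGCGG was found in 21, among them 4 of 5 that rose, 5 of 9 that fell and 11 of 18 that did not pass. It was in 57.9% of the 38 collagen promoters and in 32.7% of all 32851 promoters in the table. CCAAT was found in 13 of the 35 genes and in 33.9% of all promoters, TATAAA in 5 genes and in 12.4% of all promoters, and TGANTCA in 1 gene, Col6a1, and in 6.75% of all promoters. A match is only a match of letters and does not show that a factor binds.

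The basement membrane class had 9 genes, of which 1 rose and 1 fell. Col7a1, which forms the anchoring fibrils beneath epithelia, had 10.4, 11.6 and 11.6 CPM in KO and 6.19, 5.96 and 5.51 CPM in WT, a rise of 1.90-fold (log2 fold change 0.93, SE 0.13, edgeR FDR 0.000207). Col15a1, a proteoglycan collagen of muscle and capillary basement membranes, had 5.98, 6.93 and 6.72 CPM in KO and 13.2, 12.5 and 13.2 CPM in WT, and was 1.97-fold lower (log2 fold change -0.98, SE 0.12, edgeR FDR 8.92e-05). Both calls held when any 1 library was left out. Col18a1, the source of endostatin and the nearest relative of Col15a1, overlapped between the groups (log2 fold change 0.17, FDR 0.556).

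The common type IV chains were the most abundant genes of the class and did not pass. Col4a1 had 77.3, 89.8 and 75.6 CPM in KO and 72.9, 60.3 and 59.6 CPM in WT, and Col4a2 59.0, 64.6 and 58.1 CPM in KO and 53.8, 44.3 and 42.4 CPM in WT. Neither gene overlapped between the groups, with KO above WT. Their log2 fold changes were 0.33 (95% interval 0.04 to 0.61, edgeR FDR 0.12) and 0.34 (0.06 to 0.63, edgeR FDR 0.0897). Over the alternative fits the log2 fold change ran from 0.21 to 0.48 for Col4a1 and from 0.27 to 0.52 for Col4a2. WT 1 was the WT library nearest to KO for both, and without it WT is a single sample. Both genes passed with the 6 libraries taken as separate samples (FDR 0.0128 and 0.00516), a fit that counts each close pair as 2 samples. These genes lie head to head and share a promoter region. Chains of the specialised type IV networks were sparse, with mean levels in KO and WT of 0.205 and 0.319 CPM for Col4a3, 0.448 and 0.515 CPM for Col4a4, 1.37 and 1.27 CPM for Col4a5, and 0.479 and 0.405 CPM for Col4a6. The FDR of these 4 ran from 0.495 to 0.832.

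Markers of the cells that carry basement membranes moved unevenly. Of 10 endothelial genes 3 were higher and 2 lower, with sums of 347 to 362 CPM in KO and 304 to 307 CPM in WT. Fast muscle genes had 5 of 12 higher and none lower, and the list ranged from 6696 to 7942 CPM in KO and from 4348 to 6283 CPM in WT. Slow muscle genes had none of 8 called, and 6 had a negative log2 fold change. Their sums overlapped, at 32.66 to 37.65 CPM in KO and 30.65 to 37.47 CPM in WT. All 10 Schwann cell genes were lower, with sums of 491 to 510 CPM in KO and 1431 to 1477 CPM in WT. Of 10 keratinocyte genes 9 had a row and 6 were tested, 1 higher and 1 lower. The list summed to 13.3 to 14.5 CPM in KO and 16.0 to 16.8 CPM in WT. Krt5, the lower one, had 5.19 to 6.38 CPM in KO and 8.03 to 8.27 CPM in WT. Krt13, the higher one, had 5, 10 and 16 counts in KO and 0 in WT. Also at 0 in WT were Krt1, with 3, 4 and 0 counts in KO, and Lor, with 0, 0 and 2. Salivary gland genes, 10 of 11 of them higher, summed to 517 to 553 CPM in KO and 41.3 to 44.4 CPM in WT. The part of these cells in the values of Col4a1, Col4a2, Col7a1 and Col15a1 was not tested.

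No FACIT collagen passed. Type IX chains, which also belong to this group, are given above with the cartilage genes. Of the other 6 genes 5 were tested, with log2 fold changes of -0.53 to 0.64 by edgeR. Col14a1, a fibril-coating collagen of tendon and fascia and the most abundant of the class, had 6.39, 7.54 and 6.98 CPM in KO and 8.24, 8.74 and 8.19 CPM in WT. The KO libraries lay just under the WT libraries (log2 fold change -0.24, 95% interval -0.52 to 0.05, edgeR FDR 0.258). Col16a1 was nearest to the threshold, with 3.62, 4.45 and 3.66 CPM in KO and 6.74, 4.94 and 5.05 CPM in WT (log2 fold change -0.53, edgeR FDR 0.0608). It passed with 6 separate libraries (FDR 0.0164), where the close pairs count as separate samples. Col12a1, which sits on type I fibrils of ligament and tendon, had a log2 fold change of -0.20 (FDR 0.435), and Col22a1, a collagen of the myotendinous junction, one of 0.31 (FDR 0.226). Col20a1 had one of 0.64 (FDR 0.149). Col19a1 was not tested, with 5, 6 and 6 counts in KO and 5, 0 and 5 counts in WT. By edgeR, 2 of the 5 tested genes, Col16a1 and Col20a1, had an unadjusted p under 0.05, and DESeq2 called none.

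Among the 10 beaded filament and network collagens 9 were tested, and 1 rose and 2 fell. Col28a1, a beaded filament-like collagen known from peripheral nerve in mice, had 6.90, 8.81 and 7.08 CPM in KO and 2.91, 2.91 and 3.07 CPM in WT. It rose 2.65-fold (log2 fold change 1.41, SE 0.17, edgeR FDR 5.29e-05), in the libraries where the 10 Schwann cell genes were lower. Of 12 genes of autonomic neurons 10 were tested and 9 were higher there, with sums of 47.5 to 51.1 CPM in KO and 1.30 to 1.44 CPM in WT. Dbh, which makes noradrenaline, and Slc5a7, the choline transporter, were among the genes at 0 in every WT library. The part of nerve and ganglion cells in the Col28a1 value was not tested.

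Col26a1 and Col8a2 were the lower ones of that class. Col26a1 had 0.815, 0.833 and 0.901 CPM in KO and 1.71, 2.25 and 1.90 CPM in WT (log2 fold change -1.17, SE 0.26, edgeR FDR 0.00642), a call lost without KO 2 (FDR 0.0606). Col8a2, a chain of the hexagonal networks made by endothelia, had 1.88, 1.00 and 0.978 CPM in KO and 2.39, 1.99 and 2.48 CPM in WT (log2 fold change -0.90, SE 0.24, edgeR FDR 0.0206). KO 1 was the KO library nearest to WT, and without it the log2 fold change was -1.24 (FDR 0.00326). Leaving out KO 2 (FDR 0.198), KO 3 (FDR 0.129), WT 1 (FDR 0.0643) or WT 3 (FDR 0.055) ended the call, as did DESeq2's Wald test (FDR 0.0896). Its partner Col8a1 had a log2 fold change of -0.02 (95% interval -0.48 to 0.44, FDR 0.969), and its sign turned with the settings.

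The type VI chains, which form the pericellular filaments of muscle, fat and cartilage, were slightly lower in KO and did not pass. Col6a1 had 22.1, 20.6 and 18.5 CPM in KO and 30.9, 22.2 and 23.8 CPM in WT (log2 fold change -0.40, edgeR FDR 0.0673). Col6a2 and Col6a3 had log2 fold changes of -0.39 and -0.22 (FDR 0.111 and 0.289). All 3 kept the KO libraries under the WT libraries, although the groups almost met in each: the highest KO and lowest WT libraries had 22.1 and 22.2 CPM for Col6a1, 19.71 and 19.73 CPM for Col6a2, and 8.616 and 8.62 CPM for Col6a3. Without KO 1 or WT 2 the Col6a1 call passed (FDR 0.0399 and 0.0438). The chains Col6a5 and Col6a6 were at or under 0.684 CPM in each library and did not pass (FDR 0.377 and 0.17), and Col6a4, with at most 4 counts in a library, was not tested. Of 8 white adipocyte genes 7 were tested, 1 higher and 4 lower, with sums of 898 to 998 CPM in KO and 505 to 694 CPM in WT. The higher sum in KO rested on Lpl, the lipoprotein lipase gene, which muscle also expresses: the other 7 summed to 294 to 366 CPM in KO and 292 to 437 CPM in WT. Of 10 macrophage genes 8 were lower and none higher, with sums of 60.4 to 61.5 CPM in KO and 95.8 to 117 CPM in WT. The part of these cells in the type VI values was not tested.

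Transmembrane collagens had 4 members, of which 2 fell and none rose. Col17a1, the hemidesmosome collagen of epithelial cells, had 1.02, 1.00 and 1.34 CPM in KO and 1.85, 2.12 and 2.48 CPM in WT (log2 fold change -0.93, SE 0.25, edgeR FDR 0.0177). Leaving out KO 2 ended the call (FDR 0.148), as did DESeq2's Wald test (FDR 0.0953). Col23a1 had 3.90, 3.24 and 3.73 CPM in KO and 7.49, 6.31 and 4.85 CPM in WT (log2 fold change -0.86, SE 0.18, edgeR FDR 0.00428), a call lost without KO 2 (FDR 0.0766). Col13a1, a collagen of the neuromuscular junction, had a log2 fold change of -0.77 (FDR 0.194), and Col25a1, which acts in motor innervation, one of 0.22 (FDR 0.819). In the same libraries 6 of the 8 tooth genes, among them the ameloblast genes Amelx and Ambn, were lower, and the part of such epithelial cells in the Col17a1 value was not tested.

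Chains that assemble with each other were compared by the ratio of their counts within a library, which is free of scaling. Of 14 such pairs, 7 had at least 50 counts for both chains in every library, and the KO and WT ratios did not overlap for 2 of these. Col1a1 over Col1a2 was 3.35, 3.71 and 3.53 in the KO libraries, against 1.24, 1.14 and 1.14 in the WT libraries. Col11a1 over Col11a2 was 0.181, 0.201 and 0.217 in KO and 0.466, 0.812 and 0.650 in WT. In type I the chains moved apart by opposite changes, and in type XI both rose and Col11a2 rose more. By contrast, Col4a1 over Col4a2 was 1.30 to 1.39 in KO and 1.36 to 1.40 in WT, and Col6a1 over Col6a2 was 0.993 to 1.33 in KO and 1.04 to 1.21 in WT. Those ratios overlapped between groups, as did Col5a1 over Col5a2 at 0.408 to 0.597 in KO and 0.588 to 0.814 in WT. Among the pairs with fewer counts, only Col8a1 over Col8a2 did not overlap, at 1.22 to 2.29 in KO and 0.781 to 1.00 in WT, with a lowest count of 38. The ratios are given as a description, with no test and no share over other pairs of genes.

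**Figure D4:**
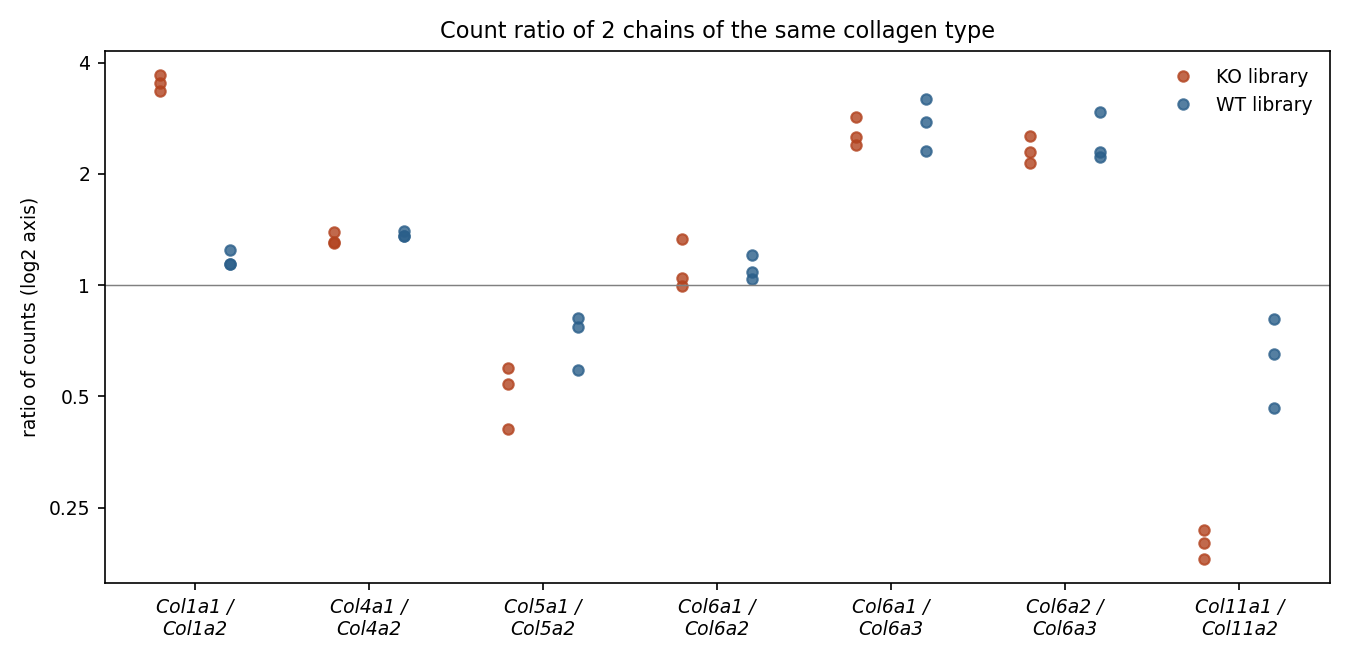
Ratio of the counts of 2 chains of the same collagen type (log2 axis) in each library, KO left of WT, for the 7 pairs with at least 50 counts for both chains in every library. The type I ratio lies at 3.35 to 3.71 in KO and 1.14 to 1.24 in WT, and the type XI ratio at 0.181 to 0.217 in KO and 0.466 to 0.812 in WT; the other pairs overlap.

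Transcript features that the naming rule did not use gave little separation. The GC content of the longest transcript had a median of 59.2% in the 6 genes that rose, 56.7% in the 10 that fell and 53.6% in the 25 that did not pass. Across the 41 tested genes it had a Spearman rho of 0.02 with the log2 fold change, and transcript length one of 0.22, against -0.02 and 0.09 over the 13990 of 14632 tested genes with a known transcript. These genes share the same 6 libraries, so the correlations are only descriptions. In an annotation of another build, 7 of the 44 genes shared exon bases with another gene of the table. The largest shares were 6.07% of the exon bases of Col9a3 and 5.65% of those of Col4a3, and among the 16 called genes Col10a1, Col15a1 and Col5a1 shared at most 1.33% with such a gene. Whether counting used strand is unknown here, so reads in those shared bases cannot be told apart.

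Among 47 enzymes, chaperones and receptors that handle collagen 45 were tested, and 7 were higher and 3 lower in KO, so that 22.2% of those tested were called, against 17.6% of all genes. The median log2 fold change was 0.02. By list, 3 of 5 cross-linking genes, 4 of 10 receptors, 2 of 15 hydroxylation and glycosylation genes and 1 of 7 cleavage genes were called. None of the 8 folding and export genes passed by edgeR or DESeq2, while 3, Mia3, Mia2 and Sec24d, had an unadjusted edgeR p under 0.05. Serpinh1, the collagen chaperone HSP47, had a log2 fold change of -0.05 (edgeR FDR 0.82).

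Of the 15 hydroxylation and glycosylation genes 2 rose and none fell. That is 13.3% called, all higher, against 17.6% of all tested genes called and 9.15% called higher. P4ha2, a catalytic subunit of the prolyl 4-hydroxylase that stabilises the helix, had 17.3, 17.3 and 17.2 CPM in KO and 6.77, 6.57 and 6.29 CPM in WT, a 2.62-fold rise with little spread (log2 fold change 1.39, SE 0.12, edgeR FDR 3.24e-06). Its relative P4ha1 had 9.42 CPM in KO and 9.18 CPM in WT (log2 fold change 0.04, FDR 0.869). Plod2, which hydroxylates the lysines used for cross-links, had 14.7, 14.3 and 13.8 CPM in KO and 8.72, 10.1 and 8.66 CPM in WT (log2 fold change 0.65, edgeR FDR 0.00145). Adamts14, which removes the amino-terminal propeptide, was the 1 of 7 tested cleavage genes to pass, with 2.14, 1.33 and 1.96 CPM in KO and 0.753, 0.529 and 0.777 CPM in WT (log2 fold change 1.30, edgeR FDR 0.00929). Bmp1, which removes the carboxy-terminal one, had a log2 fold change of 0.20 (FDR 0.247).

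The lysyl oxidases, which cross-link fibrils, differed in both directions. Loxl4 had 1.73, 1.93 and 1.88 CPM in KO and 0.513, 0.662 and 1.09 CPM in WT (log2 fold change 1.35, edgeR FDR 0.00546). Loxl1 had 1.76, 1.69 and 1.49 CPM in KO and 4.48, 2.25 and 3.30 CPM in WT (log2 fold change -1.11, FDR 0.00507), and Loxl2 3.72, 3.59 and 3.65 CPM in KO and 6.57, 6.40 and 4.85 CPM in WT (log2 fold change -0.73, FDR 0.00561). The most abundant member, Lox, did not pass (log2 fold change 0.29, FDR 0.123). Without KO 2 the calls of Loxl4 and Loxl2 were lost (FDR 0.0567 and 0.0755).

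Of 10 tested collagen receptors 3 rose and 1 fell. Mrc2, which takes up collagen fragments for degradation, had 13.0, 11.2 and 12.7 CPM in KO and 5.27, 4.85 and 5.51 CPM in WT (log2 fold change 1.21, SE 0.13, edgeR FDR 3.01e-05). Adgrg1, an adhesion receptor that binds type III collagen, had 39.1, 42.4 and 40.2 CPM in KO and 22.2, 18.4 and 19.5 CPM in WT (log2 fold change 1.00, edgeR FDR 6.62e-05). Itga10, the cartilage collagen integrin chain, had 3.69, 3.69 and 3.73 CPM in KO and 2.22, 2.03 and 1.67 CPM in WT (log2 fold change 0.88, edgeR FDR 0.00526), a call lost without KO 2 (FDR 0.0503). Ddr2, a receptor kinase for fibrillar collagen, had 11.9, 12.5 and 11.7 CPM in KO and 18.7, 22.2 and 22.7 CPM in WT (log2 fold change -0.77, edgeR FDR 0.000601). In all 4 genes, shown because they passed, the KO libraries stood apart from the WT libraries. Among the 10 tested receptors only these 4, or 40%, did so, against 38.5% of all tested genes.

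**Figure D5:**
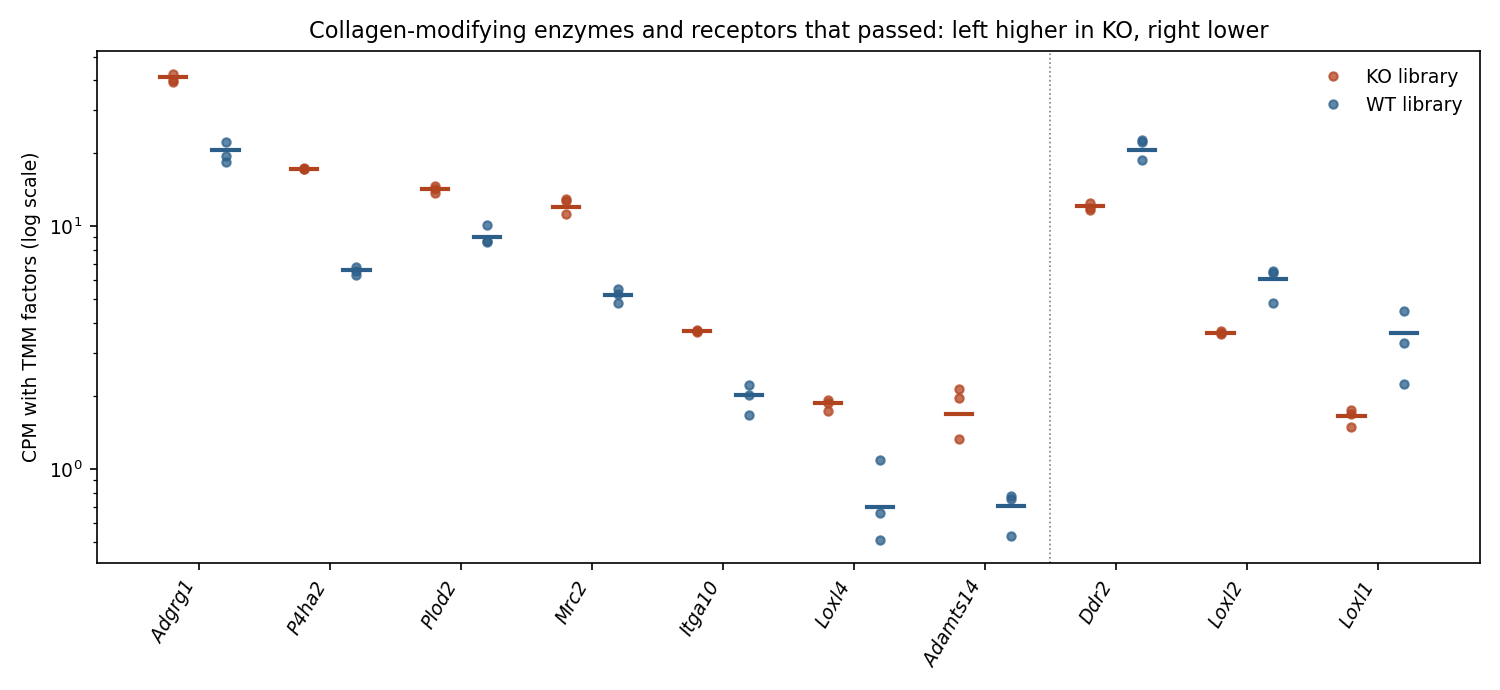
CPM with TMM factors (log scale) of the 10 collagen-modifying enzymes and receptors that passed, with 1 point per library, a bar at the mean of the 2 samples of a group, and KO left of WT. P4ha2 lies at 17.2 to 17.3 CPM in KO and 6.29 to 6.77 CPM in WT.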

How the data were processed

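RNA sequencing of mouse TMJ tissue was deposited as raw counts per gene symbol, 1 column per library. The authors' HISAT2 2.1.0, StringTie 2.1.5 and build mm39 are named per the submitters' processing notes; the sources used here give neither their roles nor the annotation or strand setting. Total counts were 28551236 to 35094127 per library, which limits precision most for genes under about 50 counts.

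Libraries of a group whose median variance ratio was under 1.1, a limit set after the ratios were seen, were summed, giving 4 samples. Counts were fitted over all genes with edgeR 4.0.16 in R 4.3.3 (filterByExpr with a minimum of 10 counts, TMM factors, robust quasi-likelihood test, Benjamini-Hochberg FDR under 0.05), after the script was tested on simulated data. SE and 95% intervals come from the log2 fold change and its F statistic. DESeq2 1.42.0, other scalings and filters, 6 separate libraries, a replicate block and leaving out each library were alternatives.

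The collagen genes, gene lists and marker lists were chosen with earlier results of these data known. Values per library are given for genes that passed, the most abundant member of each class, and Col1a1, Col1a2, Col3a1, Col2a1 and Col10a1. Values per library of Col4a2, Col16a1 and Col6a1, the list sums without Bglap or Lpl, and Mmp20 were added after they were seen. So were Phex, the slow muscle list and the share of receptors without overlap. Transcript lengths came from GENCODE M21 on GRCm38, a build other than the authors', so no other coordinates are printed.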

Additional observations from a re-analysis of the deposited data

How the results depend on the processing

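The number of collagen genes called, 16 (6 higher and 10 lower in KO), was the same 16 genes under DESeq2 size factors, upper-quartile factors and without mitochondrial genes, where the median log2 fold change of all genes moved by 0.02 or less. It was 21 of 44 with no filter, 14 of 30 with at least 50 counts in 3 libraries, 19 with 6 separate libraries and 14 by the DESeq2 Wald test, where the count over all genes called was 1634, against 2580. With a minimum absolute log2 fold change of 1 it was 7 (3 of them lower), with 1058 genes called in all and 5 of the assembly genes. Leaving out 1 library gave 9 to 17 collagen genes (5 to 8 higher, 4 to 11 lower), 1149 to 2434 genes in all and 7 to 11 assembly genes. The lowest counts of collagen genes and of all genes came without KO 2, where KO is a single sample assumed to vary like WT. Lost then were Col1a2, Col3a1, Col11a1, Col8a2, Col17a1, Col23a1 and Col26a1. Without WT 1, WT is in the same way a single sample. Same-numbered libraries did not deviate together (correlations -0.104, -0.141 and 0.0816), so the numbers are not taken as pairs. The largest correlation of any KO with any WT library was 0.22, for KO 2 with WT 1, the libraries that were not summed. Whether these 2 belong to a shared block was not tested, and the main fit has no such block. The fit of 6 libraries with a replicate block called 20 collagen genes, the 16 and Col16a1, Col4a1, Col4a2 and Col6a1. It called 2941 genes in all, against 3452 with no replicate block. Of genes that did not pass, the log2 fold change turned sign for Col8a1 (0.0027 with no filter, 0.031 with 6 libraries, 0.039 with the block, and -0.053 to 0.12 leaving out 1 library), Col4a4 (-0.40 to 0.10 leaving out 1 library, above 0 without KO 2), Col9a3 (-0.022 to 0.21, below 0 without WT 3) and Col4a6 (-0.021 to 0.53, below 0 without WT 3); the cause was not tested.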
